A study of Homo sapiens with 6 samples.

Results

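Glycolysis and hypoxia response genes were followed after knockdown of NELFCD in the human line Mum-2b, which is known as a uveal melanoma line. The group holds 37 of the 58735 genes in the deposited count table, taken by gene symbol, and all 37 were found. They encode the enzymes that turn glucose into lactate, the glucose and lactate carriers, the subunits of the hypoxia-inducible factor (HIF), its oxygen-sensing hydroxylases and well-known HIF targets. Of these, 35 passed the filter on low counts and were tested. Per the labels, the 3 control libraries carry the genotype WT and the other 3 the genotype NELFCD_knockdown, with no further treatment or time named. The control titles read NC1, NC2 and NC3 and do not say whether those cells carried a control hairpin. All 6 come from the same line, and the knockdown titles name a short hairpin RNA, shRNA1. It is the sole hairpin named, so effects of NELFCD loss and of that hairpin's other targets cannot be told apart. NELFCD belongs to the negative elongation factor complex, which holds RNA polymerase II near the start of genes.

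In glycolysis, hexokinases, phosphofructokinases and pyruvate kinase set the flux, and lactate dehydrogenase regenerates the cofactor that lets it run without oxygen. HIF is a dimer of an oxygen-labile alpha subunit (HIF1A or EPAS1) and a stable partner. In oxygen the EGLN prolyl hydroxylases mark the alpha subunit for destruction, and in hypoxia it accumulates and switches on genes of glucose uptake, glycolysis, blood vessel growth and mitophagy. Many tumour cells run glycolysis at a high rate even in oxygen.

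HIF binds a short core, ACGTG or GCGTG, so the bases upstream of the start were searched for these letters on both strands. The set of RefSeq start sites used here (GRCh38.p14) covered 33 of the 37 members. It held no entry for SLC2A3, VEGFA, NDRG1 and BNIP3L, so these were not searched, although VEGFA is a called fall. The 250 bases before the start are printed for ADM, the member that rose, and for ENO2 and EPAS1, the called falls of smallest p with an entry. They run 5′ to 3′ on the gene's strand, with matches to either core in capitals. The windows are chr11:10304823-10305072, chr12:6914330-6914579 and chr2:46297157-46297406, all on the plus strand and all within the gene spans of the deposited table.

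ADM: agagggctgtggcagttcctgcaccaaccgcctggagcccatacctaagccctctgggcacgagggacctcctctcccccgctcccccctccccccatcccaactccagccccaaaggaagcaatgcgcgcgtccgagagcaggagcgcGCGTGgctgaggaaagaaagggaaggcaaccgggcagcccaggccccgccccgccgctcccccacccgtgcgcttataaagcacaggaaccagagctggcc

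ENO2: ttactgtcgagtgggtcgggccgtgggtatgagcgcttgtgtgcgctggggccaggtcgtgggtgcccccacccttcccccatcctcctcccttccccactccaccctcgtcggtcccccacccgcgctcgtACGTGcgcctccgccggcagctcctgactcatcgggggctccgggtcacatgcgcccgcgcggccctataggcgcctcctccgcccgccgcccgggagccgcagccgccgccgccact

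EPAS1: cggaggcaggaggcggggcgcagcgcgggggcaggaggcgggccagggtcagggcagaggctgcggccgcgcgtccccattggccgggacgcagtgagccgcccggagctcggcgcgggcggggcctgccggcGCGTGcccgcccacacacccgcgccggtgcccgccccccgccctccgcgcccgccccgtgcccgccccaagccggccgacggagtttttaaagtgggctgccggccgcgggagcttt

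The ADM window held 1 match, a GCGTG that begins 101 bases before the start. ENO2 held 1 ACGTG, beginning 118 bases before the start, and EPAS1 held 1 GCGTG, beginning 117 bases before it. Among the other called members, the BNIP3 window held 6 matches, of which 2 overlap as CACGTG read on either strand, and the P4HA2 window held 0. ACGTG was present in 23 of 60 member windows (38.3%, several genes have more than 1 start) and in 18.5% of all 35116 windows of this length. GCGTG was present in 19 of 60 (31.7%) against 32.2% of all windows. A match is a description of the letters and not a binding site.

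The libraries held 14306733 to 16656630 counts, and the 37 members took 1.44% to 1.58% of them. The targeted gene, NELFCD, was at 65.5 to 88.3 counts per 1000000 (CPM) in controls and 20.7 to 40.3 in knockdowns, or 41.5% of the control mean (log2 fold change -1.30, adjusted p = 0.00046 with the replicate number in the model and 0.53 without it). The first principal component held 68.8% of the variance and the second 17.1%, and the positions of the libraries along them are not given here. Of 8 melanocyte markers 3 reached 1 CPM in any library, with MITF at most 5.38, TYRP1 9.17 and MLANA 2.39 CPM. PMEL reached at most 0.959 and SOX10 0.548 CPM, and TYR, DCT and S100B stayed at or below 0.206 CPM. These values alone do not identify the cells as melanocytic, and the origin of the line was not tested. The epithelial list, mostly keratins KRT8 and KRT18, summed to 686 to 1301 CPM in controls and 1058 to 1462 in knockdowns. Its other members, EPCAM and CDH1, reached at most 0.637 and 0.0685 CPM. Fibroblast and immune marker lists summed to at most 0.991 CPM in any library. The endothelial list, nearly all of it the cadherin CDH5, summed to 125 to 166 CPM in controls and 54.3 to 57.7 in knockdowns, and the part of either list in the results was not tested.

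The comparison of knockdown with control asks which transcripts differ when NELFCD is depleted. With the replicate number in the model, 1 of the 35 tested members rose and 5 fell. The rise was adrenomedullin (ADM). The falls were the neuronal enolase ENO2, the vascular growth factor VEGFA, the HIF alpha subunit EPAS1, the collagen hydroxylase P4HA2 and the mitophagy receptor BNIP3. The other 14 tested enzymes of upper and lower glycolysis did not pass. The background over all 14844 genes tested was 5.48% rising and 8.01% falling, so 6 of 35 members (17.1%) compares with 13.5%. The median log2 fold change of the tested members was 0.031, against 0.000 over all genes. In bulk RNA, fewer cells with a transcript and less transcript per cell cannot be told apart.

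edgeR without a replicate term called 0 members, as it called 0% of all genes. At an unadjusted p under 0.05 that fit held 1 member, ADM, and 954 of 14844 genes. DESeq2 without the term called 1 member, ADM, against 1.08% of all genes. Groups were disjoint for ADM and for the isomerase GPI, both higher in the knockdown (7.52% of all genes), and for 0 members lower (7.38% of all genes). The exact two-sided permutation p was 0.1 for ADM and for GPI, and 3 against 3 libraries cannot give a smaller one. In replicates 2 and 3 alone, 10 members passed upward and 6 downward, against 11.7% and 13.7% of all genes. Those p-values rest on the small spread between replicates 2 and 3, and the labels do not say whether these were separate cultures.

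**Figure D1:**
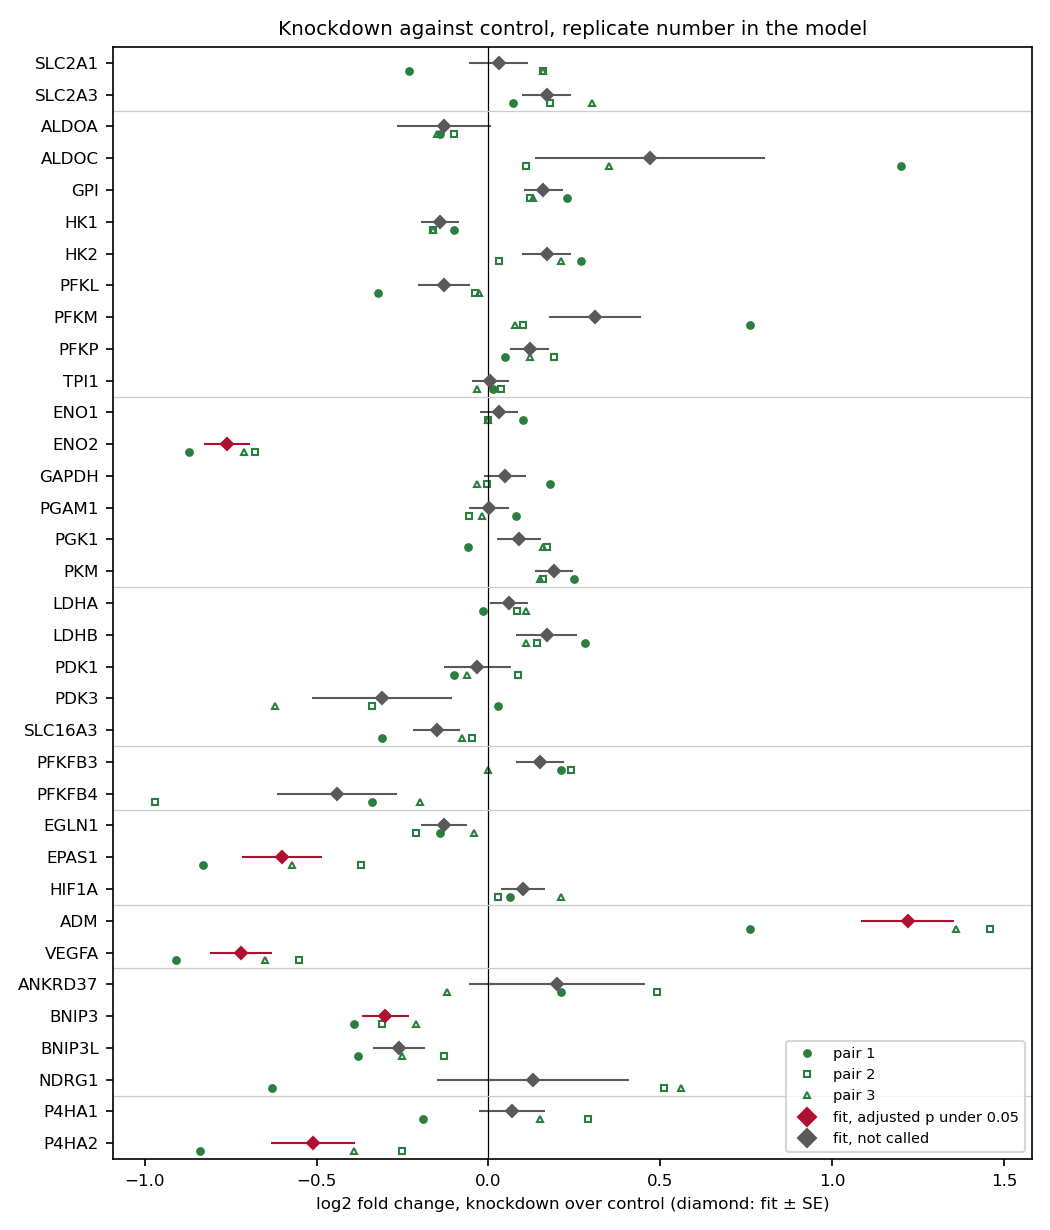
Log2 fold change of knockdown over control for the 35 tested members, ordered by role. Diamonds are edgeR fits with the replicate number in the model (bars ± SE, n = 3 per group, red for adjusted p under 0.05), and green points are the differences between same-numbered libraries. ADM has the highest fitted value at 1.22, with pair 1 of the low-count ALDOC close to it at 1.20, and NDRG1 has pair 1 at -0.63 and pairs 2 and 3 at 0.51 and 0.56.

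Of the HIF subunits, EPAS1 fell and HIF1A did not pass. EPAS1 (chromosome 2, 46293667 to 46386703, hg38, protein-coding, as are all genes given with coordinates here) encodes HIF-2 alpha. Controls 1 to 3 had 29.1, 16.0 and 18.5 CPM of it, and knockdowns 1 to 3 had 16.3, 12.4 and 12.5 CPM. Each knockdown library lay below its same-numbered control, while knockdown replicate 1 lay just above control replicate 2. The log2 fold change was -0.60 ± 0.117 (SE, adjusted p = 0.014), and -0.83, -0.37 and -0.57 in pairs 1 to 3. Without the replicate term EPAS1 did not pass (-0.63, edgeR adjusted p = 0.81). HIF1A, the more abundant alpha subunit, was at 126, 163 and 147 CPM in controls and 131, 166 and 169 CPM in knockdowns. Its groups overlapped (log2 fold change 0.10, adjusted p = 0.33).

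The oxygen sensor EGLN1 did not pass, with 77.3 ± 11 CPM in controls and 70.7 ± 10.9 CPM in knockdowns (SD, n = 3; log2 fold change -0.13, adjusted p = 0.23). EGLN3, a hydroxylase that HIF itself induces, had 2, 0 and 2 counts in replicates 1 to 3 of either group. At this depth its level could not be told from 0, and it was not tested.

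Among secreted and surface targets, ADM rose and VEGFA fell. ADM (chromosome 11, 10304680 to 10307397) encodes adrenomedullin, a vasodilator peptide hormone. It stood at 12.3, 16.3 and 16.2 CPM in the controls and at 20.8, 44.8 and 41.5 CPM in the knockdowns. All 3 knockdown libraries exceeded all 3 controls, and knockdown replicate 1 lay nearest to them. The log2 fold change was 1.22 ± 0.135 (SE, adjusted p = 0.0014), with 0.76, 1.46 and 1.36 in pairs 1 to 3, and without the replicate term it was 1.26 (adjusted p = 0.58).

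VEGFA (chromosome 6, 43770184 to 43786487) encodes the main growth factor for blood vessels. It stood at 127, 25.3 and 26.1 CPM in the controls and at 67.9, 17.3 and 16.7 CPM in the knockdowns. The replicate 1 libraries were several times higher than the others in both groups, so the groups overlapped although each pair differed downward. The log2 fold change was -0.72 ± 0.0908 (SE, adjusted p = 0.0024), and -0.91, -0.55 and -0.65 in pairs 1 to 3. Without the replicate term VEGFA did not pass (-0.81). CA9, the carbonic anhydrase often used as a tissue marker of hypoxia, had 3 counts in control replicate 1, 2 in knockdown replicate 1 and 0 in all others, and was not tested. It shares 38.5% of its exon bases with the gene ARHGEF39, so its low count is uncertain.

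**Figure D2:**
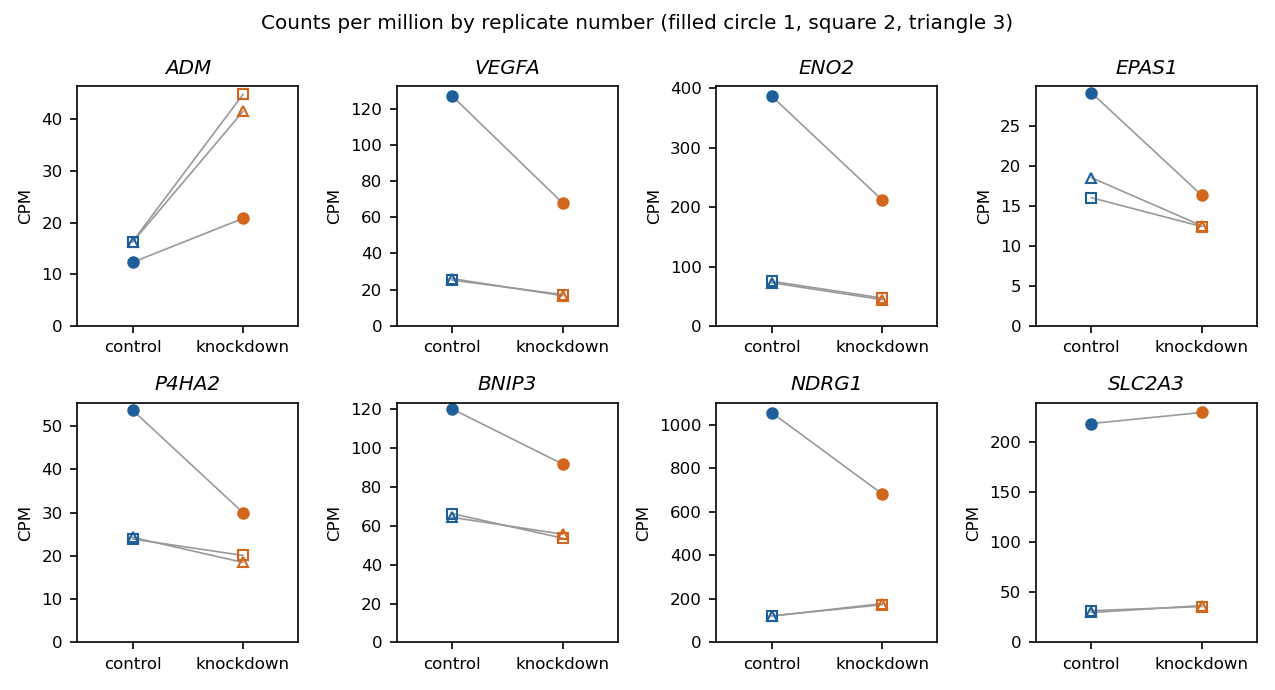
CPM (axes from 0) of 8 members in each library, with grey lines joining libraries of the same replicate number. ADM is higher in every knockdown library, the lines of VEGFA, ENO2, EPAS1, P4HA2 and BNIP3 all slope down, and those of NDRG1 slope down for replicate 1 and up for the others. SLC2A3 shows a large replicate 1 level with little difference between groups.

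Of the intracellular hypoxia targets, BNIP3 fell. BNIP3 (chromosome 10, 131966455 to 131982013), which marks mitochondria for removal, was at 120, 66.2 and 64.3 CPM in controls and 91.7, 53.6 and 55.6 CPM in knockdowns. Every pair differed downward, by -0.39, -0.31 and -0.21. The log2 fold change was -0.30 ± 0.0676 (SE, adjusted p = 0.022), and the call was lost without replicate 2 (adjusted p = 0.12, range 0.0015 to 0.12 over 9 alternatives that account for replicate 1). The groups of BNIP3 overlapped, and it did not pass without the replicate term (-0.32). Its paralog BNIP3L was at 108, 44.6 and 44.0 CPM against 83.4, 40.8 and 37.1 CPM and did not pass (-0.26, adjusted p = 0.053), though 4 of 9 such alternatives called it (range 0.018 to 0.15).

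NDRG1, a stress-responsive gene widely used as a readout of hypoxia, differed in direction between replicate 1 and the others. Controls 1 to 3 had 1055, 122 and 121 CPM, and knockdowns 1 to 3 had 682, 173 and 178 CPM. The knockdown was lower in pair 1 (-0.63) and higher in pairs 2 and 3 (0.51 and 0.56), and the fit over all pairs gave 0.13 ± 0.280 (SE, adjusted p = 0.80). An interaction fit, added after the data were seen, gave a difference of -1.16 between pair 1 and the others. Pair 1 is 1 library per group, so the error of that fit rests on replicates 2 and 3 and holds no spread for replicate 1. In replicates 2 and 3 alone the gene passed upward (0.53, adjusted p = 4.3e-15). ANKRD37, a small HIF target, stayed between 1.44 and 4.12 CPM and did not pass (0.20, adjusted p = 0.64), and 35.2% of its exon bases are shared with the gene UFSP2.

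The collagen prolyl 4-hydroxylase subunits, which hydroxylate procollagen so that the triple helix is stable, were both measured. P4HA2 (chromosome 5, 132191838 to 132295315) was at 53.7, 23.9 and 24.3 CPM in controls and 30.0, 20.1 and 18.5 CPM in knockdowns. It was lower in each pair, with a log2 fold change of -0.51 ± 0.121 (SE, adjusted p = 0.027), which was -0.32 without replicate 1. The CPM groups of P4HA2 overlapped, and it did not pass without the replicate term (-0.57). P4HA1 was at 97.3, 36.6 and 40.6 CPM in controls and 85.2, 44.8 and 45.0 CPM in knockdowns and did not pass (0.069, adjusted p = 0.68). In replicates 2 and 3 alone P4HA1 passed upward (0.21, adjusted p = 0.033). P4HA2 made up 16.7%, 19.2% and 17.8% of the summed FPKM of both genes in controls and 11.4%, 14% and 13.0% in knockdowns. The groups were disjoint (exact permutation p = 0.10, the smallest possible, and 0.60 adjusted over 9 shares). FPKM, fragments per kilobase of gene scaled to library size, is scaled by length and is used here wherever genes are compared with each other. The gene length covers all annotated exons (P4HA2 8502 bases, P4HA1 3093) and not the transcripts expressed, so levels between genes and shares depend on it.

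The glucose transporters did not pass over all libraries, and both passed upward in replicates 2 and 3 alone (SLC2A1 0.16, adjusted p = 0.011; SLC2A3 0.24, adjusted p = 0.028). SLC2A1 (GLUT1), the general glucose carrier of tumour cells, was at 182, 107 and 105 CPM in controls and 156, 120 and 117 CPM in knockdowns. Pair 1 differed downward (-0.23) and pairs 2 and 3 upward (0.16 each), and the fit gave 0.030 ± 0.0853 (SE, adjusted p = 0.84). SLC2A3 (GLUT3), a carrier of high affinity, was at 218, 31.6 and 29.8 CPM in controls and 229, 35.7 and 36.7 CPM in knockdowns (0.17, adjusted p = 0.14). Its high values are those of replicate 1 in both groups.

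No enzyme of upper glycolysis passed in the fit over all libraries. Of the 9 alternatives that account for replicate 1, 3 called GPI, 2 called HK1, 2 called PFKM and 1 called PFKP (lowest adjusted p 0.0027, 0.00023, 0.0021 and 0.00060). HK1, the housekeeping hexokinase, was at 461, 372 and 368 CPM in controls and 429, 332 and 329 CPM in knockdowns (-0.14, adjusted p = 0.12). HK2, the hexokinase that hypoxia induces, was at 113, 53.4 and 48.2 CPM against 136, 54.6 and 55.6 CPM (0.17, adjusted p = 0.14). Both had all 3 pairs on the same side, HK1 downward and HK2 upward.

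GPI, which converts glucose 6-phosphate to fructose 6-phosphate, was at 403, 468 and 466 CPM in controls and 471, 510 and 509 CPM in knockdowns. The groups were disjoint, though narrowly, and the fit gave 0.16 ± 0.0559 (SE, adjusted p = 0.093). The platelet-type phosphofructokinase PFKP was at 414, 327 and 337 CPM in controls and 429, 374 and 365 CPM in knockdowns (0.12, adjusted p = 0.20). The liver type PFKL was at 169, 97.4 and 101 CPM against 135, 94.9 and 98.8 CPM (-0.13, adjusted p = 0.28). The groups of both genes overlapped.

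PFKM, the muscle-type subunit, was at 96.0, 104 and 95.1 CPM in controls and 163, 111 and 100 CPM in knockdowns. Its high library is knockdown replicate 1, and pair 1 gave 0.76 where pairs 2 and 3 gave 0.10 and 0.077 (fit 0.31, adjusted p = 0.16). TPI1, the triosephosphate isomerase, was at 700 ± 160 and 703 ± 158 CPM (SD, n = 3; adjusted p = 0.96). The aldolases did not pass. ALDOA was at 9.39, 7.36 and 8.69 CPM in controls and 8.51, 6.85 and 7.81 CPM in knockdowns, and ALDOC at 0.548, 1.63 and 1.5 against 1.26, 1.76 and 1.92 CPM. ALDOA shares 53.5% of its exon bases with other genes, so its low count, and any comparison with ALDOC, is uncertain.

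In lower glycolysis ENO2 fell while the abundant enzymes did not pass in the fit over all libraries. ENO2 (chromosome 12, 6913745 to 6923698) is the enolase known from neurons and neuroendocrine cells. It stood at 387, 75.2 and 72.7 CPM in controls and at 212, 47.0 and 44.3 CPM in knockdowns. Replicate 1 was high in both groups and the pairs were close in size, at -0.87, -0.68 and -0.71. The log2 fold change was -0.76 ± 0.0664 (SE, adjusted p = 0.00054), the smallest p among the members.

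ENO1, the common enolase, was at 2345, 3370 and 3330 CPM in controls and 2506, 3369 and 3326 CPM in knockdowns (0.031, adjusted p = 0.75). GAPDH, the dehydrogenase that makes the first NADH of the pathway, was at 3285, 3827 and 3754 CPM against 3725, 3814 and 3670 CPM (0.048, adjusted p = 0.65). Here control replicate 1 is the low library, and the other 5 lie close together. PGAM1, the phosphoglycerate mutase, was at 475 ± 163 and 470 ± 145 CPM (SD, n = 3; adjusted p = 0.99).

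PGK1, the first step that yields ATP, was at 630, 545 and 535 CPM in controls and 605, 611 and 599 CPM in knockdowns (0.090, adjusted p = 0.38). Its pairs went -0.058, 0.17 and 0.16, and in replicates 2 and 3 alone it passed upward (0.16, adjusted p = 5.4e-05). PKM, pyruvate kinase, was at 1868, 2531 and 2567 CPM in controls and 2219, 2823 and 2854 CPM in knockdowns. All 3 pairs differed upward, and the call depended on the setting, with an adjusted p of 0.057 (log2 fold change 0.19) and 5 of 9 alternatives that account for replicate 1 passing (range 9.7e-06 to 0.37).

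For the fate of pyruvate, no member passed in the fit over all libraries, and LDHA passed upward in replicates 2 and 3 alone (0.10, adjusted p = 0.012). LDHA, the lactate dehydrogenase subunit that hypoxia induces, was at 869, 1166 and 1111 CPM in controls and 859, 1236 and 1200 CPM in knockdowns (0.060, adjusted p = 0.52). LDHB, the heart-type subunit, was at 17.8, 27.7 and 27.8 CPM against 21.6, 30.5 and 30.1 CPM (0.17, adjusted p = 0.23), and 33.4% of its exon bases overlap another gene. The lactate exporter SLC16A3 (MCT4) was at 354, 251 and 265 CPM in controls and 284, 243 and 251 CPM in knockdowns (-0.15, adjusted p = 0.18).

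PDK1 and PDK3 are kinases that switch off pyruvate dehydrogenase. PDK1 was at 35.1, 14.4 and 15.4 CPM in controls and 32.7, 15.3 and 14.7 CPM in knockdowns (-0.032, adjusted p = 0.85), and PDK3 was at 3.98, 5.45 and 5.07 CPM against 4.05, 4.30 and 3.29 CPM (-0.31, adjusted p = 0.34). PFKFB3 and PFKFB4 make the fructose 2,6-bisphosphate that activates phosphofructokinase. PFKFB3 was at 109 ± 19.7 and 120 ± 16.1 CPM (SD, n = 3; 0.15, adjusted p = 0.19). PFKFB4 was at 27.0, 2.97 and 2.44 CPM in controls and 21.3, 1.51 and 2.12 CPM in knockdowns (-0.44, adjusted p = 0.13), with replicate 1 far above the others in both groups.

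**Figure D3:**
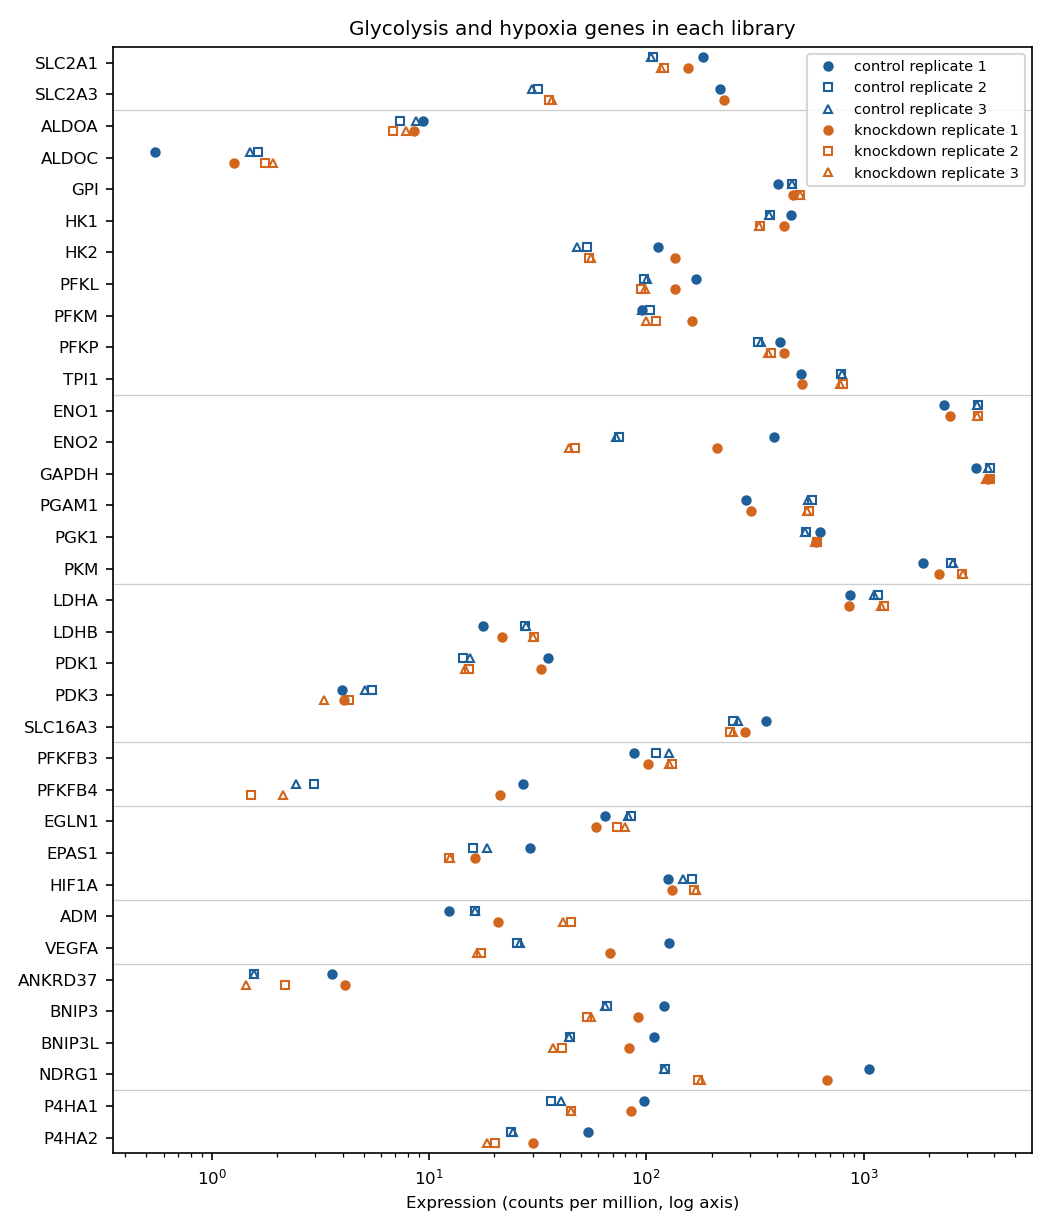
Level of each tested member in each library, in CPM on a log axis, ordered by role with controls in blue and knockdowns in orange, filled circles for replicate 1. For PFKFB4, SLC2A3, NDRG1, ENO2 and VEGFA the replicate 1 points of both groups sit apart to the right of replicates 2 and 3.

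Per length, the members spanned a wide range. GAPDH was highest at 1212 ± 114 FPKM in controls (SD, n = 3), followed by ENO1 at 571 ± 117. PKM (270 ± 49.1) and TPI1 (259 ± 62.3) came next. In controls 1 to 3 PKM was the higher each time, at 214, 297 and 301 against 187, 293 and 297 FPKM. Below them, PGAM1 (185 ± 65.4) and LDHA (169 ± 27.5) changed order between libraries, at 110, 227 and 218 against 137, 189 and 180 FPKM. These differences between genes were not tested. PGK1 was at 103 ± 7.96, PFKP at 74.0 ± 8.74, HK1 at 63.3 ± 7.40 and GPI at 41.6 ± 4.02 FPKM. The order of the last 3 depends on the length used (4836, 6296 and 10680 bases). By control mean CPM, GPI (446) lay above HK1 (400) and PFKP (359). The alpha subunits stood at 28.1 ± 3.91 FPKM for HIF1A and 2.88 ± 0.900 for EPAS1.

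Within isoenzyme families, HK2 took 20.2%, 13% and 12% of hexokinase FPKM in control replicates 1 to 3 and 24.7%, 14.6% and 14.9% in knockdowns. PFKP took 72.8%, 72.9% and 74.2% of phosphofructokinase FPKM in controls and 70.4%, 75% and 75.3% in knockdowns. LDHB took 4.09%, 4.72% and 4.96% of the lactate dehydrogenase pair in controls and 4.98%, 4.88% and 4.96% in knockdowns. The groups overlapped in all 3 families. ENO2 took 16.9%, 2.68% and 2.62% of enolase FPKM in control replicates 1 to 3 and 9.45%, 1.69% and 1.62% in knockdowns. SLC2A3 took 47.9%, 18.4% and 17.9% of its pair with SLC2A1 in controls and 53.0%, 18.5% and 19.4% in knockdowns. PDK3 took 25.4%, 53.2% and 49.7% of its pair with PDK1 in controls and 27.2%, 45.8% and 40.2% in knockdowns. EPAS1 took 14%, 6.49% and 8.18% of alpha-subunit FPKM in controls and 8.07%, 5.0% and 4.94% in knockdowns. None of the 9 shares passed an exact permutation test, where the smallest p is 0.1 and all adjusted p were 0.60 or more.

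**Figure D4:**
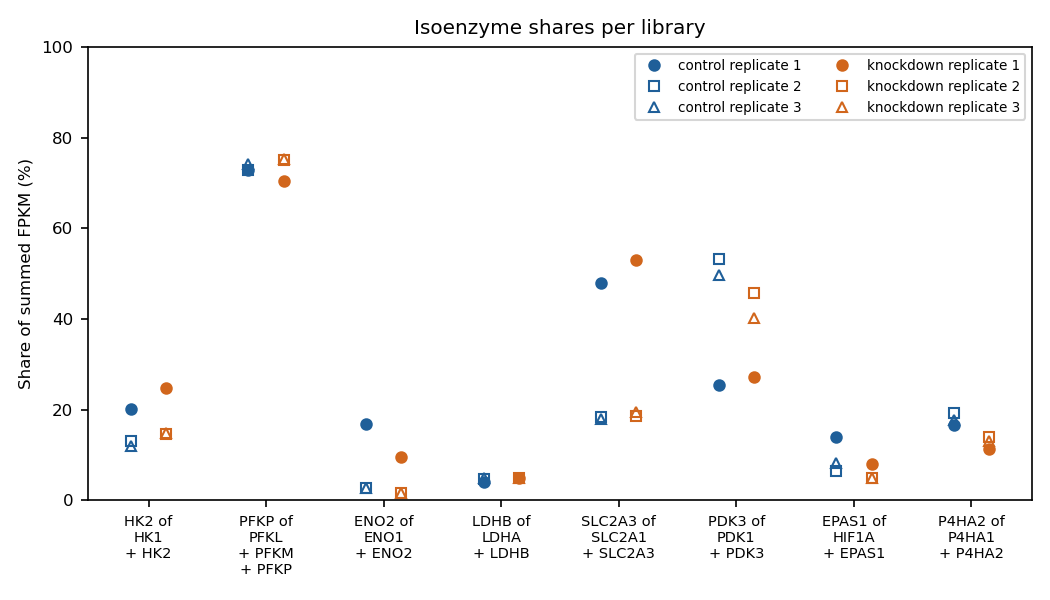
Share of 1 isoenzyme in the summed FPKM of its family, in percent per library (the aldolases are left out because of the shared exons of ALDOA). P4HA2 is the family where the groups are disjoint, with controls at 16.7% to 19.2% and knockdowns at 11.4% to 14%, and replicate 1 of both groups stands apart for HK2, ENO2, SLC2A3 and PDK3 and is the highest of its group for EPAS1.

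Most members varied with the replicate number. With group in the model, 28 of 35 tested members (80.0%) passed the joint test of replicate number, against 50.4% of all genes. Among all 35 tested, 18 passed with replicate 1 higher than the mean of replicates 2 and 3 in both groups (25.7% of all genes). Another 10 of 35 passed with replicate 1 lower (24.6% of all genes), a count near that share. The 4 intracellular hypoxia targets, both glucose transporters and both collagen hydroxylases were all among those higher. PFKFB4 was 9.98 times higher in controls and 11.7 times in knockdowns, SLC2A3 7.10 and 6.33 times, ENO2 5.23 and 4.65 times, and VEGFA 4.95 and 4.0 times. NDRG1 was 8.68 times higher in controls and 3.88 times in knockdowns.

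Several abundant enzymes lay the other way. PGAM1 in replicate 1 was at 0.504 times the mean of replicates 2 and 3 in controls and 0.547 times in knockdowns, TPI1 at 0.650 and 0.656, ENO1 at 0.700 and 0.749, PKM at 0.733 and 0.782 and LDHA at 0.763 and 0.705. ADM, unlike VEGFA, was lower in replicate 1, at 0.756 times in controls and 0.482 times in knockdowns. HIF1A was at 0.814 and 0.785 times, and EPAS1 at 1.68 and 1.32 times. The labels say neither what the replicate number marks nor which of the 2 named RNA extraction kits each library used, and the part of either was not tested.

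**Figure D5:**
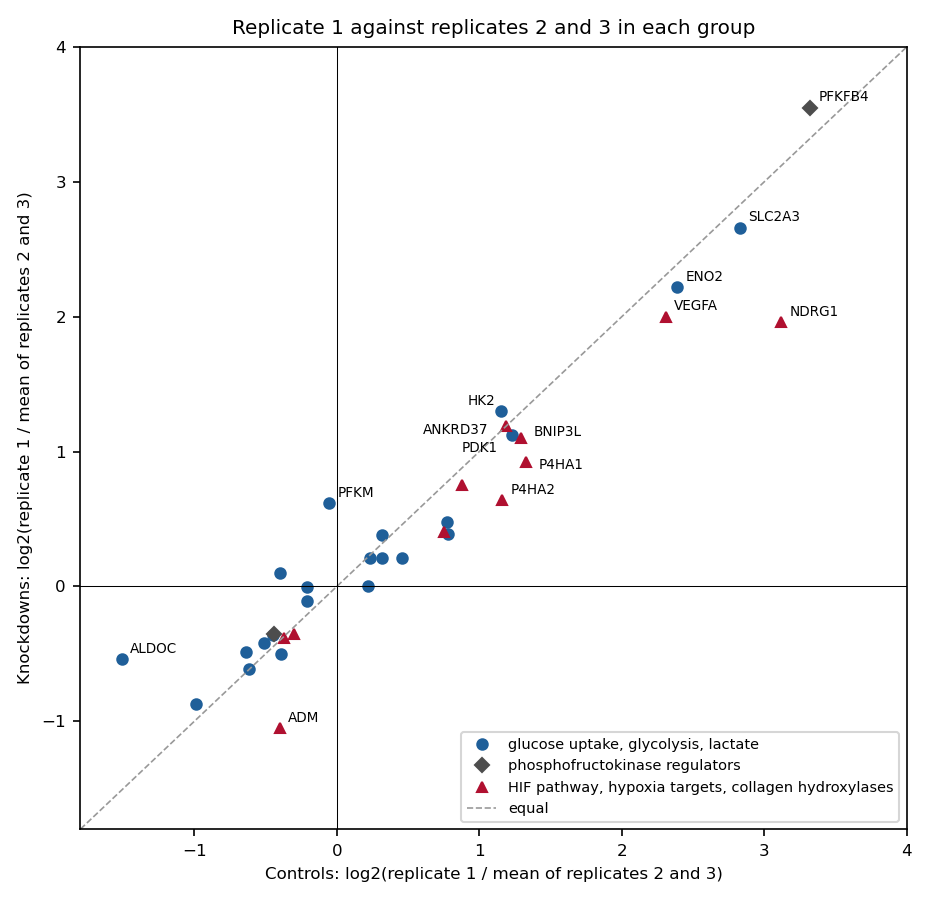
Log2 ratio of replicate 1 to the mean of replicates 2 and 3, in controls (horizontal) and in knockdowns (vertical), for the 35 tested members. PFKFB4 lies at the upper right at 9.98 and 11.7 times, NDRG1 and ADM lie below the dashed line of equal ratios, and ALDOC (log2 -1.51 and -0.54) and PFKM (-0.052 and 0.62) lie above it.

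A wider list of 101 genes of the same pathways, none of them members, was counted beside the members. Of the 87 tested, 8 rose and 13 fell with the replicate number in the model, where 5.48% of all genes rose and 8.01% fell, with a median log2 fold change of -0.095 against 0.000 over all genes. In replicates 2 and 3 alone 13 rose and 15 fell, against 11.7% and 13.7% of all genes. The sublists are small, and their counts are read against the same 5.48% and 8.01%. Among 32 other hypoxia targets 4 rose and 8 fell (median -0.14; all genes 5.48% and 8.01%). The largest changes among those that passed were the endothelin precursor EDN1 at 1.14 (1.36 to 3.09 CPM, means), the calcium-regulating hormone STC1 at -1.06 (190 to 97.9 CPM) and the mTOR inhibitor DDIT4 at -0.90 (61.1 to 28.8 CPM). EDN1, like ADM a vasoactive peptide, was at 0.480, 1.49 and 2.13 CPM in controls and 0.731, 4.48 and 4.04 CPM in knockdowns, and passed in 6 of 9 alternatives that account for replicate 1.

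Among 17 other glycolytic and glucose genes 3 rose and 0 fell (all genes 5.48% and 8.01%). They were the phosphatase G6PC3 (0.39), the monocarboxylate carrier SLC16A1 or MCT1 (0.35) and its chaperone BSG, or basigin (0.29). SLC16A1 was at 136, 191 and 183 CPM in controls and 170, 245 and 235 CPM in knockdowns, higher in each pair. BSG was at 424, 542 and 532 CPM against 546, 633 and 648 CPM, with disjoint groups, and passed in 7 of 9 alternatives that account for replicate 1 (adjusted p up to 0.10). SLC16A1 passed in 8 of 9 (up to 0.078).

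Of 7 glycogen genes 1 rose and 2 fell (all genes 5.48% and 8.01%). The glycogen phosphorylase PYGL rose from 143 to 208 CPM (0.54, adjusted p = 0.0016). The glycogen-targeting subunits of protein phosphatase PPP1R3B (-0.99, adjusted p = 0.0015) and PPP1R3C (-2.20, adjusted p = 0.014) fell, the latter from 1.31 to 0.278 CPM and passing in 7 of 8 alternatives. Of 10 pyruvate entry genes 1 fell (all genes 8.01%), the pyruvate dehydrogenase phosphatase PDP1 (-0.49, adjusted p = 0.0038), which works against the PDK kinases. Of 14 HIF pathway regulators 2 fell (all genes 8.01%), the asparaginyl hydroxylase HIF1AN (-0.24, adjusted p = 0.046, passing in 5 of 9 alternatives that account for replicate 1) and the ubiquitin ligase SIAH2 (-0.30, adjusted p = 0.026, passing in 7 of 9). Of 7 pentose phosphate genes 0 passed in edgeR with the replicate number in the model.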

How the data were processed

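Gene-level RNA-seq counts of 6 libraries were used, with raw counts and FPKM per gene as deposited, per the file headers. Per the submitters' processing notes the genome build is hg38. Aligner, counter and strand setting were not given in the sources used here. FPKM values deposited by the authors were used for isoenzyme shares. Counts were tested with edgeR 4.0.16 in R 4.3.3 (filterByExpr, TMM, robust quasi-likelihood F-tests, Benjamini-Hochberg over all 14844 genes tested, threshold 0.05). DESeq2 1.42.0 and limma 3.58.1 (voom) were alternatives. CPM used TMM-scaled library sizes.

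The fit planned as main had no replicate term. A second planned fit added replicate number as a blocking factor, and its values are the ones given unless stated. Deviations from the group mean were alike in libraries of the same number (correlations across genes of 0.838, 0.629 and 0.616 for numbers 1 to 3). Libraries of different numbers were not compared. Replicate 1 stood apart in both groups, so these correlations cannot show that replicates 2 and 3 pair by number. The labels do not say that the numbers pair the samples. Blocking lowered the biological coefficient of variation from 32.6% to 8.17% and the residual degrees of freedom from 4 to 2.

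The members and lists were chosen with earlier results of these data known. Every member is named, with values per library for those called and for isoenzyme families (for the aldolases as CPM, since ALDOA shares exons). From the wider list up to 3 called genes per sublist with the largest change are named. Exon overlap was taken from GENCODE 29. The fits were also run on simulated counts with a common dispersion for all genes and the same replicate shift in both groups. That setting lacks the differences in knockdown effect between replicate numbers, so it cannot say how the fits behave under them. Where nothing says that replicates were separate cultures, p-values measure the spread between these samples, which may be technical.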

Additional observations from a re-analysis of the deposited data

Results flagged for a closer look

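The knockdown effect differed between pair 1 and pairs 2 and 3 for 10 of 35 tested members (28.6%), by edgeR's interaction of group with replicate 1 (13.0% of all genes). This test was added after the data were seen, and its error rests on replicates 2 and 3 of each group. In log2 units, as pair 1 minus pairs 2 and 3, the difference was -1.16 for NDRG1, 0.67 for PFKM, -0.65 for ADM, -0.52 for P4HA2 and -0.41 for P4HA1. It was -0.39 for SLC2A1, -0.29 for PFKL, -0.25 for SLC16A3, -0.22 for PGK1 and 0.20 for GAPDH. For ADM and P4HA2 the pairs had the same direction and differed in size, as they did for PFKM, PFKL and SLC16A3. For NDRG1, SLC2A1, P4HA1, PGK1 and GAPDH pair 1 had the opposite sign to pairs 2 and 3, with values near 0 for PGK1 in pair 1 (-0.058) and for GAPDH in pairs 2 and 3 (-0.005 and -0.033). DESeq2 called 5 of these interactions (GAPDH, PGK1, NDRG1, SLC2A1 and PFKM). NELFCD itself differed by -1.66 in pair 1 and by -1.24 and -1.05 in pairs 2 and 3, and its part in these differences was not tested.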

How the results depend on the processing

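The count of members called moved most with the replicate number. It was 0 without a replicate term (1 with DESeq2) and 6 with the replicate block, and in that fit 0 without the block, 10 with replicate 1 as a batch term (3 rises, 7 falls) and 5 to 16 when a replicate number was left out, with 16 without replicate 1. Scaling and filter moved it less, to 7 with RLE, 8 with upper-quartile scaling (3 rises, 5 falls), 8 with limma-voom (2 rises, 6 falls) and 9 with no filter (3 rises, 6 falls), against 1 rise and 5 falls. Leaving out any 1 library from the fit without the term gave 0. The interaction count went from 10 to 5 with DESeq2. The 6 called members had the same direction in each of their 10 alternatives, and ADM, ENO2, VEGFA, EPAS1 and P4HA2 passed in 9 of 9 alternatives that account for replicate 1. Members near 0 changed sign: TPI1 to -0.004 with RLE scaling and DESeq2 and -0.010 with no filter, PGAM1 to -0.008, -0.013 and, without the block, -0.012, and PDK1 to 0.018 with upper-quartile scaling. Without the block SLC2A1 was at -0.004 and NDRG1 at -0.33. With a replicate number left out, ranges were -0.013 to 0.020 for TPI1, -0.020 to 0.083 for GAPDH, -0.038 to 0.029 for PGAM1, -0.003 to 0.044 for ENO1, -0.086 to 0.009 for PDK1, -0.039 to 0.16 for SLC2A1, -0.078 to 0.53 for NDRG1 and -0.033 to 0.21 for P4HA1. The PFKP share difference ran from -0.644 to 1.59 percentage points (-0.199 without replicate 3). The cause was not tested. Depth limits CA9 and EGLN3, each at most 3 counts, and CA9 also shares 38.5% of its exon bases with ARHGEF39.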
